A study of Mus musculus with 16 samples.

Results

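The acetylated histone H3 mark H3K27Ac and the binding of lamin A/C were examined at 10 mouse genes of glucose use, phosphate transfer and oxygen storage in adult cardiomyocytes. The genes were Slc2a4, Slc2a1, Hk2, Pfkm, Ldha, Ldhb, Ckm, Ckmt2, Ak1 and Mb. They were chosen by name, and a chromatin immunoprecipitation sequencing (ChIP-seq) peak counted as theirs when the deposited annotation gave it their symbol, which is that of the nearest transcription start. The 8 peak lists named 11472 genes in all. For H3K27Ac, Des+/+ held 23 peaks of the 10 genes out of 15757 when basal and 18 of 11157 when swum, and Des-/- held 25 of 16638 and 7 of 10407. Values of the 4 lists are given below with both basal lists first, Des+/+ before Des-/-, and then both swim lists likewise.

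Mice were 3 months old, and their heart cells were freed by perfusion with trypsin and collagenase D. Des+/+ mice carried desmin, the intermediate filament protein of muscle, and Des-/- mice lacked it. The labels name no strain for them. Basal mice had not been exercised, and swim mice had undergone swimming exercise, a mild muscular stress. The question was whether active chromatin, and what lamin A/C binds, depend on desmin at rest and under stress. Each combination of genotype, condition and antibody was 1 library, made from chromatin of several mice. No spread between replicates could therefore be measured, and every difference below compares libraries. Intervals cover counting error only.

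In the heart, glucose enters through the transporters GLUT4 (Slc2a4), which moves to the cell surface with insulin or contraction, and GLUT1 (Slc2a1), which serves basal uptake. Hexokinase 2 traps glucose as glucose 6-phosphate, phosphofructokinase commits it to glycolysis, and lactate dehydrogenase interconverts pyruvate and lactate. Creatine kinase and adenylate kinase carry high-energy phosphate between mitochondria and myofibrils, and myoglobin stores oxygen. H3K27Ac marks active promoters and enhancers, and lamin A/C is a filament protein of the nuclear lamina and nucleoplasm.

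The height of a peak is the number of overlapping reads at its summit, and the input height is that of unprecipitated chromatin at the same place. The lowest height in the H3K27Ac lists was 15 reads, which has a Poisson interval of 8.40 to 24.7 reads. A gene without a peak is therefore one below the height or significance limit of that list. Whether heights were scaled to depth is not given, so those of Des-/- swim may not be on the scale of the other lists, and ratios below are divided by the median ratio of all genes or regions. The median input height under all peaks was 5 reads in Des-/- swim and 3 in each other list. An input height of 4 or more was found under 26.3%, 22.8%, 30.5% and 70.2% of the peaks in that order of lists, Des-/- swim last. In Des-/- swim the lowest height kept rose from 15 reads at an input of 6 to 17 at an input of 7 and 20 at an input of 9. The other lists showed such a rise too, with 18, 17 and 18 reads at an input of 7. Of 8 cardiomyocyte markers, 7, 7, 7 and 6 had an H3K27Ac peak in the same order. Of 6 endothelial markers, 6, 6, 5 and 5 had one, of 6 fibroblast markers 1, 3, 0 and 0, and of 6 leukocyte and 4 smooth muscle markers none. The part of other cells in the values below was not tested. The promoter of Des itself was acetylated in every list, with highest peaks of 30, 46, 24 and 37 reads, and so the mark does not check the genotype.

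The promoters of 4 genes, and an intronic region of Mb, carry most of what follows, and their sequences are shown first. The Ldha promoter lies under the highest peak of the 10 genes. The promoters of Slc2a1, Ckm and Ckmt2 lie at peaks that were found in 3 lists and not in Des-/- swim. Each promoter stretch is part of the RefSeq window (GRCm38.p6, 250 bases before to 50 after a start). It is the part that precedes the start of the longest principal transcript of the gene. The annotated spans of Ldha and Ckm begin further upstream, at chr7:46841475 and chr7:19404776. Capitals mark any of 7 motifs searched on both strands, namely the E-box CANNTG and the core of the hypoxia element, ACGTG, which overlap each other in CACGTG, as well as 5 others. These were the nuclear receptor element AAGGTCA, the TATA box TATAAA, the GC box GGGCGG, the MEF2 box and the serum response factor box.
Ldha, chr7:46845554-46845838, + strand: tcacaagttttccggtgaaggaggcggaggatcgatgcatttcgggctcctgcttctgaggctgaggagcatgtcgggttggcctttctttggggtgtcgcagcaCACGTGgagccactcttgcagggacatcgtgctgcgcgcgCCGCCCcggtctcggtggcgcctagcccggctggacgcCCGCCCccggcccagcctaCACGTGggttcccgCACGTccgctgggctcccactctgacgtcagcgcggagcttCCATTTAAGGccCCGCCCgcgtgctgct
Slc2a1, chr4:119108495-119108710, + strand: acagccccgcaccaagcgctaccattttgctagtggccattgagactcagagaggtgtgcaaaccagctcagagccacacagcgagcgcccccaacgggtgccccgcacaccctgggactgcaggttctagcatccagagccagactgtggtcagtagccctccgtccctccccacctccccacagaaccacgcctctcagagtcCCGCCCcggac
Ckm, chr7:19410844-19411024, + strand: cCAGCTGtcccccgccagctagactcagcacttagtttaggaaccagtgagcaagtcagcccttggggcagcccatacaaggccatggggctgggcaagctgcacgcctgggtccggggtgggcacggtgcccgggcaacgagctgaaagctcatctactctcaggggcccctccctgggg
Ckmt2, chr13:91876886-91877135, - strand: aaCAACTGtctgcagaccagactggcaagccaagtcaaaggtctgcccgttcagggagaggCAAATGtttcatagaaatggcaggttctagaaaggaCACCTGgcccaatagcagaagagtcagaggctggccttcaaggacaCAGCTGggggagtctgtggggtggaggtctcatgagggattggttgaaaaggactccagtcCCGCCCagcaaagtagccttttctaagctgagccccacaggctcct
Mb, 201 bases about the summit in intron 1, chr15:77037199-77037399, - strand: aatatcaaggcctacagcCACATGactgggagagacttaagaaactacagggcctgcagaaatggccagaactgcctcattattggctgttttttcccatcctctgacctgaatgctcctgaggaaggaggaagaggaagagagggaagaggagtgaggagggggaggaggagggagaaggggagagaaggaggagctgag

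The full 300-base windows of these 4 promoters differed in composition. The Ldha window was 67.3% G and C with 30 CpG dinucleotides, and the Slc2a1 window 65.3% with 18. The Ckm window had 64.7% and 7 CpG, and the Ckmt2 window 53.7% and 4, beside a median of 53.0% and 7 over 32544 windows. The Ldha window held 5 matches to ACGTG over both strands, a motif present in 19.7% of all windows, where each CACGTG counts on either strand and as an E-box. It also held 3 matches to the GC box (35.9% of windows) and 1 to the serum response factor box (1.64%). The Ckmt2 window held 4 E-boxes, a motif found in 72.3% of windows, and 1 GC box. The Slc2a1 window held 1 ACGTG, 2 GC boxes and 1 TATAAA (13.6%), of which the stretch printed above holds 1 GC box, and the Ckm window 1 E-box. The E-box at the 5′ end of the Ckm stretch is the single marked site in it. AAGGTCA (4.71% of windows) and the MEF2 box (3.16%) matched none of these 4 windows. A match describes letters and not binding.

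Most peaks of the 10 genes were low promoter peaks. Within 3 kb of a start lay 18 of 23, 18 of 25, 14 of 18 and 6 of 7 of them in the order of lists, beside 71.5%, 71.2%, 74.4% and 77.3% of all peaks. Their median height was 21, 18, 15.5 and 16 reads, against 23, 23, 20 and 23 for all peaks. Between 15 and 20 reads lay 11 of 23, 18 of 25, 15 of 18 and 4 of 7 of them, beside 41.6%, 41.0%, 51.3% and 39.2% of all. They covered 24885, 28259, 16612 and 6158 bp. The input height under them was at most 5 reads in the first 3 lists and at most 7 in Des-/- swim. Over the 4 lists, 37 of their 56 promoter peaks had the summit downstream of the start they were assigned to, and 69.9% to 70.8% of all promoter peaks did.

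**Figure D1:**
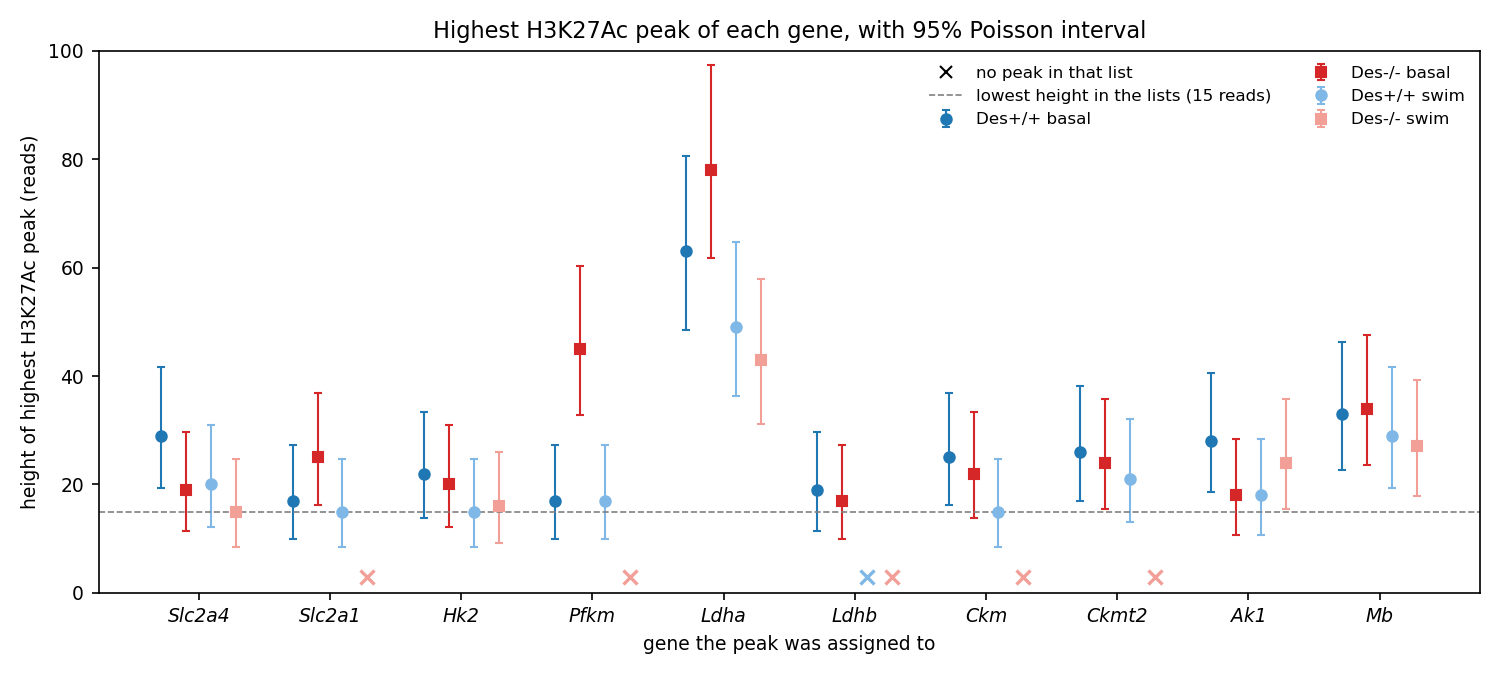
Height in reads of the highest H3K27Ac peak assigned to each gene (x axis) in each of the 4 lists, with 95% Poisson intervals; crosses mark a gene with no peak in a list, and the dashed line is the lowest height in the lists. Ldha, at 43 to 78 reads, is the highest gene in every list, and the 6 crosses are 5 genes in Des-/- swim and Ldhb in Des+/+ swim. Pfkm is crossed in Des-/- swim, where the peak at its start was assigned to Senp1.

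Of the glucose transporters, Slc2a4 had a peak in every list and Slc2a1 in every list but Des-/- swim. The highest Slc2a4 peak was 29 and 19 reads in Des+/+ and Des-/- when basal, and 20 and 15 when swum, over input of 2, 2, 2 and 4. The peaks lay at the start of the gene, within chr11:69946427-69949052, and covered 2101, 1997, 1643 and 455 bp. Des+/+ basal was the highest of the 4 and Des-/- swim the lowest and narrowest. The peak of 20 reads in Des+/+ swim did not overlap the peak of 15 reads in Des-/- swim. Slc2a1 had a single peak at its start (chr4:119108629-119109572) of 17 and 25 reads in the basal lists and 15 in Des+/+ swim, over input of 5, 5 and 2, and no peak in Des-/- swim. It was thus higher in Des-/- than in Des+/+ in the basal state, with overlapping intervals. The basal peaks covered 166 and 156 bases of the full 300-base Slc2a1 window, and the Des+/+ swim peak began beyond it.

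Hk2 and Pfkm, the enzymes that trap glucose and commit it, had a peak at the start in every list, and both had further peaks inside the gene that were missing from some lists. The Hk2 promoter region (chr6:82772385-82774401) was 21, 20, 15 and 16 reads high, over input of 3, 2, 3 and 3. In every list these peaks lay downstream of the start and ended 53, 55, 94 and 57 bp from it. Inside Hk2, intronic peaks of 15 to 22 reads were found at 4 sites in Des+/+ basal and 3 in Des-/- basal, between 20328 and 26053 bp from the start but for 1 in Des-/- basal, which lay 10533 to 11128 bp from it, within 1 kb of the start of the antisense gene Gm17034. The site at chr6:82750660-82751977 was 19 and 20 reads high in Des+/+ and Des-/- basal, and that at chr6:82752823-82754126 was 22 and 18. Neither had a peak after swimming in either genotype, where 1 other intronic peak of 15 reads was found, in Des+/+ swim.

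The Pfkm start lies beside those of Senp1, a SUMO protease gene, and of the antisense gene Gm26513. The region over all 3 (chr15:98092532-98094245) was 59, 45, 32 and 36 reads high. Only in Des-/- basal was it assigned to Pfkm, and in the other 3 lists to Senp1. Its input was 2, 3, 3 and 11 reads, so that in Des-/- swim it stood over more input than any other region described here. A start inside Pfkm (chr15:98108492-98109646) had peaks of 17, 22 and 17 reads, and none in Des-/- swim. A peak of 15 reads in Des-/- basal over a Pfkm exon (chr15:98131414-98131684) was assigned to Asb8.

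Ldha, for lactate dehydrogenase A, had the highest H3K27Ac peak of the 10 genes in every list, and Ldhb had peaks in the basal lists alone. The Ldha promoter region (chr7:46845182-46847414) reached 63 and 78 reads in basal Des+/+ and Des-/-, and 49 and 43 after swimming, over input of 3, 3, 3 and 7. These heights were at or above 94.7%, 96.6%, 94.9% and 88.5% of the peaks of their lists. The peaks covered all 300 bases of the Ldha promoter window in the first 3 lists and 105 in Des-/- swim. A region upstream of Ldha (chr7:46837691-46839878) was 16 and 17 reads high in the basal lists and had no peak after swimming. Ldhb, whose subunit predominates in the heart enzyme, had promoter peaks (chr6:142507297-142508511) of up to 19 reads in basal Des+/+ and 17 in basal Des-/-, and none after swimming in either genotype.

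Both creatine kinase genes had peaks in every list but Des-/- swim. Ckm, the cytosolic muscle isoform, had a region just inside the gene (chr7:19410982-19412098) of 25 and 22 reads in the basal lists and 15 in Des+/+ swim, each over input of 2. Ckm had a further peak before the start (chr7:19410035-19410952) of 15 reads in Des+/+ basal alone. Ckmt2, the sarcomeric mitochondrial isoform, had peaks on both sides of its start. The downstream region (chr13:91874818-91876899) was 26, 24 and 15 reads high and the upstream region (chr13:91876982-91878267) 21, 19 and 21. Of the Ckm promoter window 179, 162, 36 and 0 bases lay in peaks, and of the Ckmt2 window 83, 159, 212 and 0.

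The peaks of Ak1, cytosolic adenylate kinase, lay at different places along the gene in different lists. Its first start (chr2:32620265-32621979, which overlaps St6galnac6) had peaks of 26, 16, 15 and 16 reads, and the second (chr2:32625390-32626578) peaks of 28, 18 and 18 reads and none in Des-/- swim. At the first start the Des+/+ swim and Des-/- swim peaks did not overlap each other. At the 3′ end of the gene, a region annotated as 3′ UTR (chr2:32633774-32635086) had no peak in basal Des+/+, 15 reads in basal Des-/-, and 17 and 24 reads after swimming, over input of 3, 2 and 5. This was the single region of the 10 genes that was highest in Des-/- swim.

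Mb was acetylated near an internal start and, higher, in its first intron. That intron belongs to the longest principal transcript, and it lies upstream of the starts at chr15:77022787 and chr15:77022727. The region by the internal start (chr15:77018786-77022713) was 33, 34, 29 and 27 reads high over input of 2, 2, 4 and 2. The intronic region (chr15:77035662-77038591), whose summit sequence is printed above and holds 1 E-box, was 59, 51, 48 and 40 reads high over input of 2, 2, 2 and 4. It was assigned to the neighbour Apol6 in every list and so is in none of the counts for Mb. Both had a peak in all 4 lists, with the lowest value in Des-/- swim. Lower regions downstream of and within the gene were missing from some lists. The region at chr15:77027122-77028100 was 20 and 18 reads high in the basal lists and had no swim peak. That at chr15:77013005-77014060 had 21, 18 and 17 reads and no peak in Des-/- swim. That at chr15:77014226-77015545, which overlaps the antisense gene Gm49540, had 17 reads in basal Des-/- and 16 in swum Des+/+, and no peak in the other lists. ChIP-seq reads carry no transcript strand, so signal from Mb and Gm49540 cannot be told apart there.

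**Figure D2:**
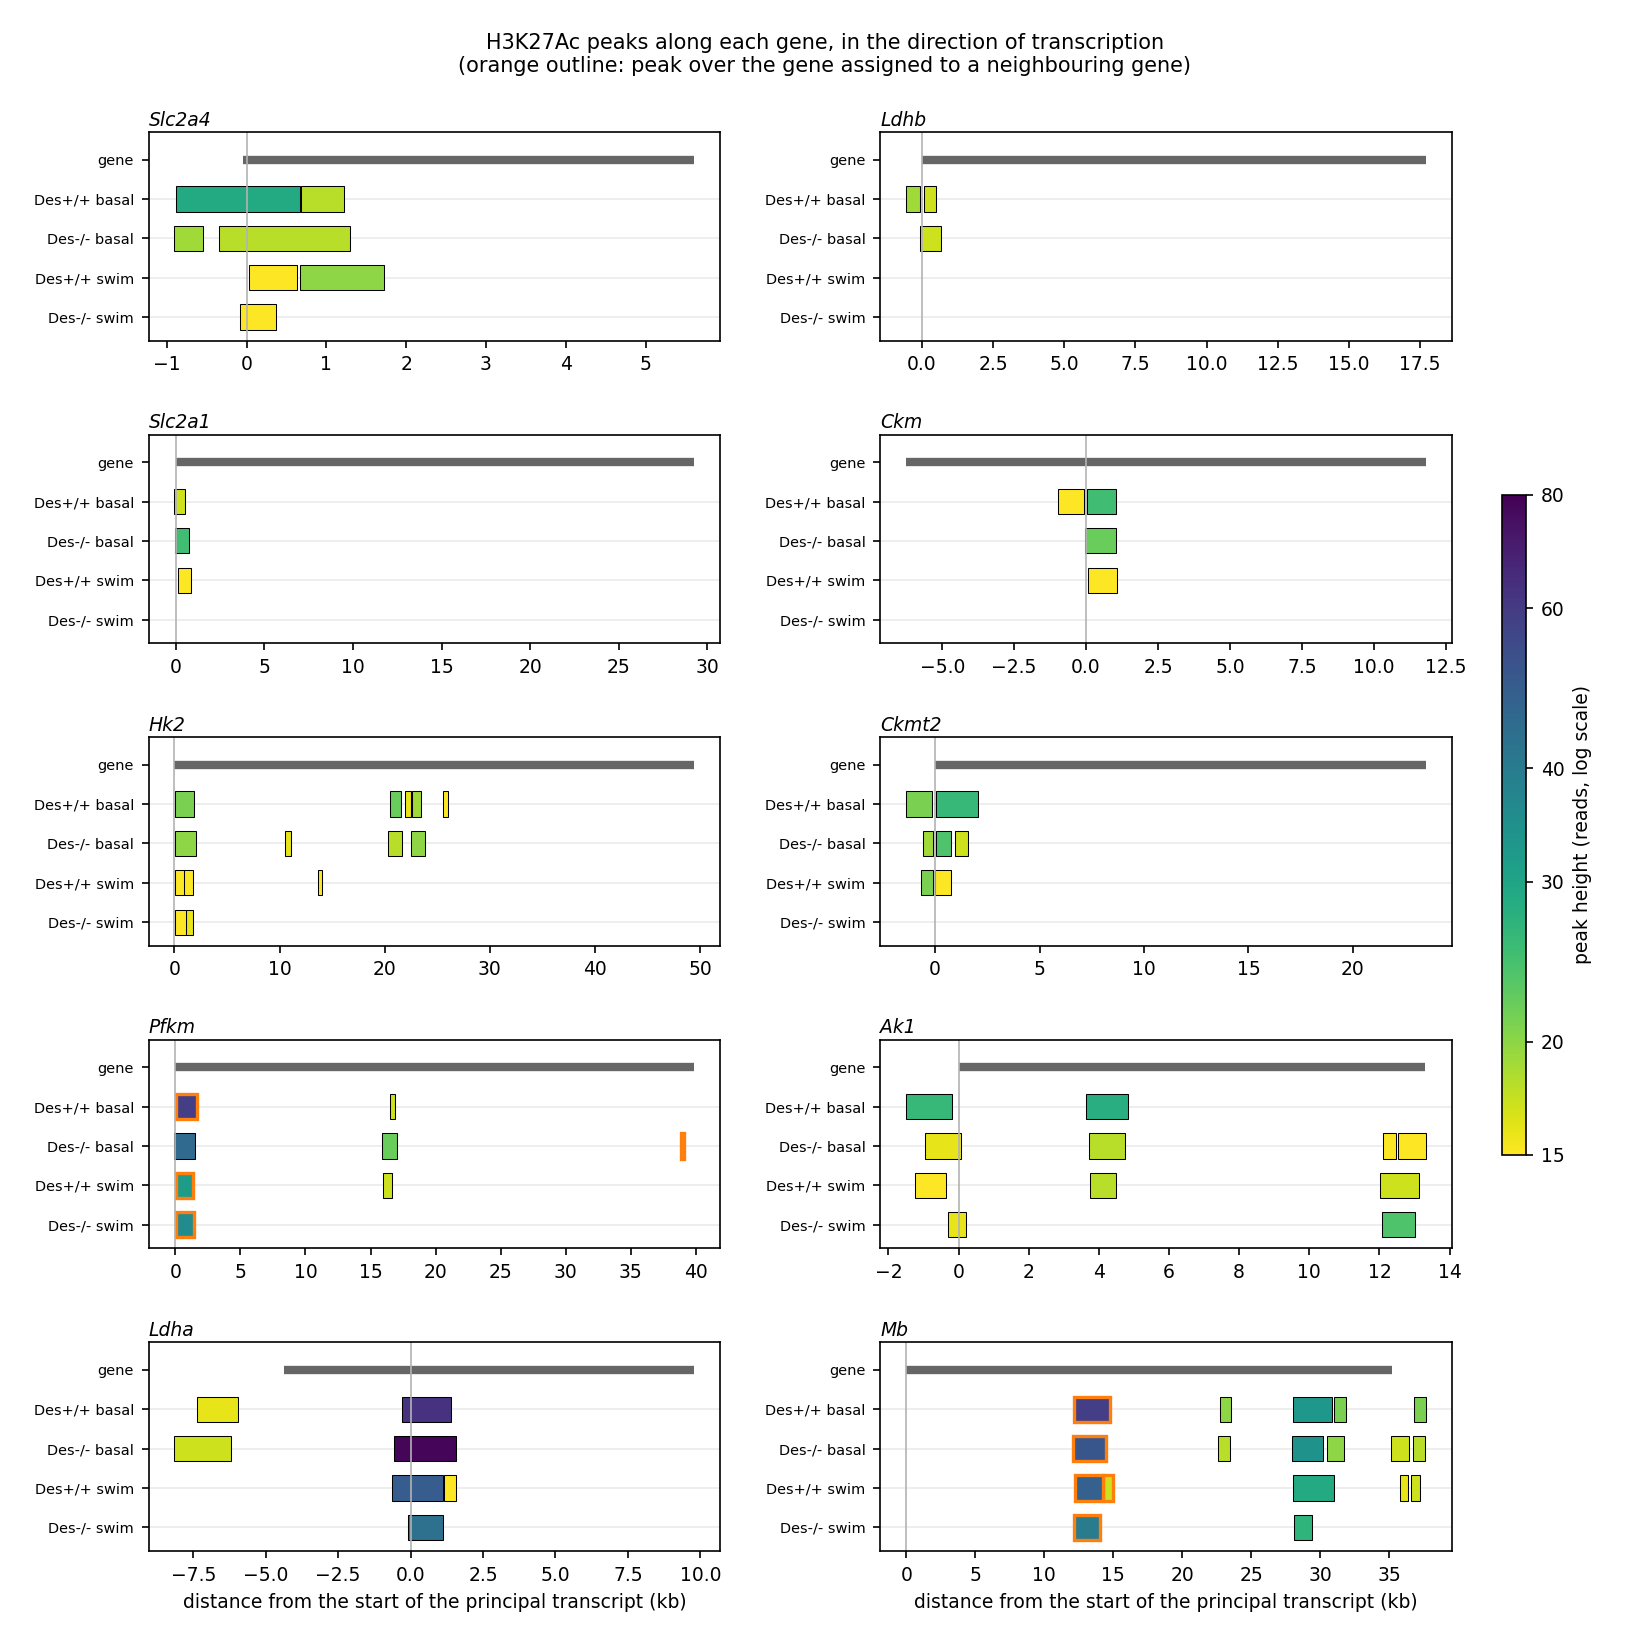
H3K27Ac peaks of the 4 lists drawn to scale along each gene, with distance in kb from the start of the longest principal transcript on the x axis (separate scales), the gene as a grey bar and peak height in reads as colour (log scale); orange outlines mark peaks over the gene that were assigned to a neighbour. The row of Des-/- swim is empty for Slc2a1, Ldhb, Ckm and Ckmt2, and Ak1 gains a peak at its 3′ end outside Des+/+ basal.

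Genotypes were compared first in the basal state. All 10 genes had a peak in both lists, and of all genes with a peak in Des+/+ basal 6.97% had none in Des-/- basal. Without an overlapping partner in the other list were 3 of the 23 Des+/+ peaks (13.0%, Wilson interval 4.54 to 32.1%) and 4 of the 25 Des-/- peaks (16.0%, 6.40 to 34.7%), beside 14.5% and 19.7% of all peaks. Among peaks 15 to 20 reads high, taken alone after the data were seen, 3 of 11 in Des+/+ (27.3%, 9.75 to 56.6%) and 4 of 18 in Des-/- (22.2%, 9 to 45.2%) had none, beside 32.0% and 42.4% of all. With the 10407 highest peaks of each list alone, 8 of 15 Des+/+ peaks (53.3%, 30.1 to 75.2%) and 2 of 10 Des-/- peaks (20%, 5.67 to 51.0%) had no partner, beside 15.1% and 15.8% of all. The basal comparison thus depends on the height at which the lists end, which was then 19 reads in Des+/+ and 20 in Des-/-. Of the peaks first counted, the 3 in Des+/+ were 2 intronic Hk2 peaks and the Ckm peak before the start, and the 4 in Des-/- were 1 Hk2 intronic peak, 2 at the 3′ end of Ak1 and 1 at that of Mb. All 7 were 15 to 17 reads high.

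Heights were compared as the Des-/- over Des+/+ ratio of each gene's highest peak, divided by the median ratio of all genes with a peak in both lists (1.07 in the basal state). Called here means at least 1.5-fold. Pfkm was called higher in Des-/- basal, with a ratio of 2.47 (interval 1.38 to 4.60), beside 3.03% of genes called higher. That ratio set the peak of the shared Pfkm and Senp1 start against a peak of the internal Pfkm start, since the shared region went to Senp1 in Des+/+ basal. Over the shared region itself the ratio was 0.72 (0.48 to 1.08). Slc2a4 with 0.61 (0.32 to 1.13) and Ak1 with 0.60 (0.31 to 1.12) were called lower, beside 3.02% of genes. The intervals of both include 1. When the same merged region was compared in both lists, a choice made after the data were seen, 0 of 18 regions were called higher and 3 lower, beside 3.03% of all regions lower. The 3 were the Slc2a4 region (0.62, 0.33 to 1.14) and the first (0.58, 0.29 to 1.13) and second (0.61, 0.32 to 1.14) Ak1 starts. The median ratio of the 18 regions was 0.85, and 14 of them were below the median of all regions.

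After swimming, Des-/- had fewer peaks of these genes than Des+/+. Of the 18 Des+/+ swim peaks, 12 had no partner in Des-/- swim (66.7%, 43.7 to 83.7%), beside 27% of all peaks. They belonged to 9 genes, every one of the 10 but Ldhb, and were 15 to 21 reads high over input of 1 to 5. Those of Slc2a4, Ldha and the first Ak1 start lay in merged regions that held a Des-/- swim peak, of 15, 43 and 16 reads. Hk2 at its start and Mb by its internal start also kept a peak in Des-/- swim. Peaks of 15 to 20 reads were again counted alone. Without a partner were then 11 of 15 (73.3%, 48.0 to 89.1%), beside 45.9% of all Des+/+ swim peaks of that height. Among the 10407 highest peaks of each list 9 of 13 had none (69.2%, 42.4 to 87.3%), beside 25.1% of all. In the other direction 1 of 7 Des-/- swim peaks had no partner (14.3%, 2.57 to 51.3%), beside 22.2% of all. It was the Ak1 peak of 16 reads at the first start. With the 10407 highest peaks of each list, 3 of 7 Des-/- swim peaks had no partner (42.9%), beside 25.0% of all. The share in this direction thus lay below that of all peaks in the full lists and above it with equal numbers. At the level of genes, 4 of the 9 with a peak in Des+/+ swim had none in Des-/- swim, namely Slc2a1, Pfkm, Ckm and Ckmt2, beside 17.6% of all genes. Pfkm is in this count by assignment, since the region at its start had a peak of 36 reads in Des-/- swim that went to Senp1, and only its internal start had no peak.

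Heights in both swim lists could be compared for 5 genes, and 0 were called higher and 0 lower in Des-/- swim, beside 3.34% and 4.17% of all genes. Centred ratios ran from 0.67 to 1.19. With 15 reads as the lowest height, Slc2a4, Hk2 and Ak1 (20, 15 and 18 reads in Des+/+ swim) could not have been called lower. Only Ldha and Mb, with 49 and 29 reads, could have been. The cardiomyocyte markers moved down in the same comparison, with 0 of 6 called higher, 3 lower and a median centred log2 ratio of -0.56, while of 5 endothelial markers 0 were called and the median was -0.31. Their part in the result was not tested. In every H3K27Ac list an input of 7 or more asks for more than 15 reads, and the higher input in Des-/- swim moved with this result. Its part was not tested, because the input at places without a peak is not given in the lists.

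Swimming was then compared with the basal state in each genotype. In Des+/+, 9 of 23 basal peaks had no partner after swimming (39.1%, 22.2 to 59.2%), beside 39.0% of all, and of those 15 to 20 reads high 8 of 11 had none, beside 70.7% of all. Among the 10407 highest peaks 5 of 15 had none (33.3%, 15.2 to 58.3%), beside 24.0% of all. The 9 included 4 intronic Hk2 peaks, both Ldhb peaks and the upstream Ldha peak. Of 18 swim peaks 3 had no basal partner (16.7%, 5.84 to 39.2%), beside 8.39% of all. With equal numbers of the highest peaks 4 of 13 had none (30.8%, 12.7 to 57.6%), beside 17.4% of all. Of the 10 genes, Ldhb alone had a basal peak and no swim peak, beside 27.4% of all genes. No gene of 9 was called higher and none lower, beside 4.22% and 3.08% of all genes, after division by a median ratio of 0.71. With 15 reads as the lowest height, only Ldha and Mb (63 and 33 reads when basal) could have been called lower. Of 7 cardiomyocyte markers 3 were called higher and 0 lower, with a median centred log2 ratio of 0.43. The share of basal peaks without a swim partner in Des+/+ was thus near that of all peaks.

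In Des-/-, 17 of 25 basal peaks had no partner after swimming (68.0%, 48.4 to 82.8%), beside 44.8% of all. Of those 15 to 20 reads high 13 of 18 had none (72.2%, 49.1 to 87.5%), beside 77.3% of all peaks of that height, so that among low peaks the share was near the background. The other 4 were 22 to 25 reads high and lay at the starts of Slc2a1, Ckmt2 and Ckm and at the internal start of Pfkm. Among the 10407 highest peaks of each list 6 of 10 had none (60%, 31.3 to 83.2%), beside 24.4% of all. Of 7 swim peaks 0 lacked a basal partner (upper Wilson limit 35.4%), beside 6.28% of all. With equal numbers of the highest peaks 3 of 7 lacked one (42.9%), beside 16.8% of all. Of 10 genes, 5 had a basal peak and none after swimming (Slc2a1, Pfkm, Ldhb, Ckm and Ckmt2), beside 32.3% of all genes. For Pfkm this again follows the assignment, since its start region had 45 reads when basal and 36 after swimming. Ak1 was called higher after swimming, with a ratio of 1.81 (0.94 to 3.54), beside 4.39% of genes. Called lower were 0 of 5 genes, beside 2.97%. With 15 reads as the lowest height, only Ldha and Mb (78 and 34 reads when basal) could have been called lower. The Ak1 ratio compares its second start in the basal list with its 3′ end after swimming, and is 1.33 without centring, so that no call remains. With promoter peaks alone Ak1 was not called either. Over the 3′ end alone it was 2.13 (1.07 to 4.37), and 4.81% of all regions were called higher. There the input was 3 reads or fewer in the basal list and 5 after swimming. The deposited fold over input there was 4.00 and 5.33 for the 2 basal peaks and 4.17 after swimming. The ratio of 2.13 was the only same-region ratio of the 4 comparisons whose interval did not include 1, and it is 1.6 before centring. The comparisons share libraries and are not independent of each other.

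**Figure D3:**
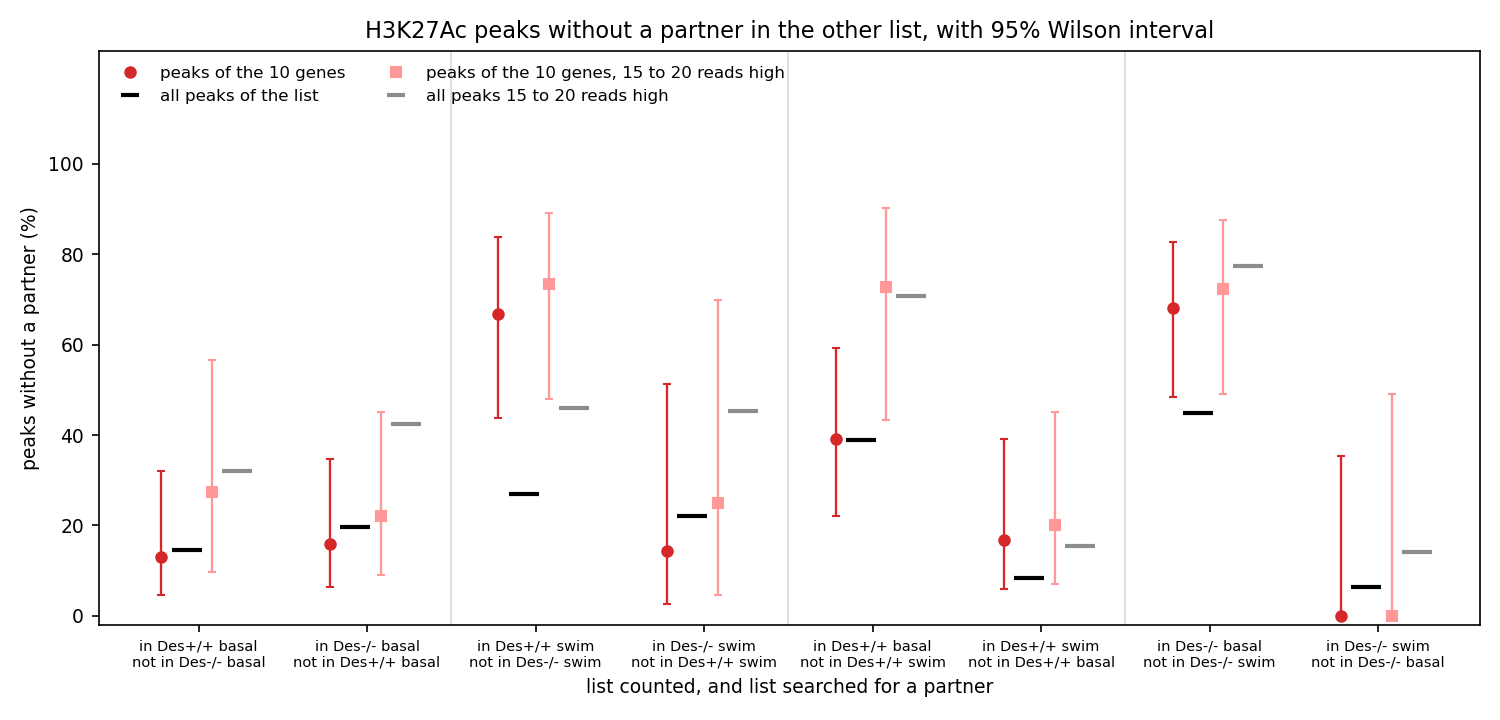
Percent of H3K27Ac peaks without an overlapping partner (y axis) for each list and the list it was set against (x axis): peaks of the 10 genes (red circles) and those 15 to 20 reads high (pink squares) with 95% Wilson intervals, beside all peaks of the list (black bars) and all peaks of that height (grey bars). For Des+/+ swim peaks sought in Des-/- swim both shares of the 10 genes, 66.7% and 73.3%, lie above the bars at 27% and 45.9%.

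Merging the peaks of the 4 lists into regions gave 25 regions of the 10 genes, of 18277 in all. A peak in every list was found at 6 of the 25 (24.0%), beside 37.7% of all regions, namely at the starts of Slc2a4, Hk2, Pfkm, Ldha and Ak1 and by the internal start of Mb. Regions with a peak in 3 lists and none in the other were counted after the data were seen, and include absences described above. Of 13 regions with a peak in the other 3 lists, 7 had none in Des-/- swim (53.8%, 29.1 to 76.8%), beside 18.6% of all such regions. The 7 were Slc2a1, the internal Pfkm start, Ckm, both sides of Ckmt2, the second Ak1 start and the region downstream of Mb. Where the Des+/+ swim height was 15 to 20 reads, this held for 6 of 9 (66.7%, 35.4 to 87.9%), beside 36.5% of all. The single list without a peak was Des+/+ swim at 0 of 6 regions (14.5% of all), Des-/- basal at 0 of 6 (0.862%) and Des+/+ basal at 1 of 7 (1.46%), the 3′ end of Ak1.

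**Figure D4:**
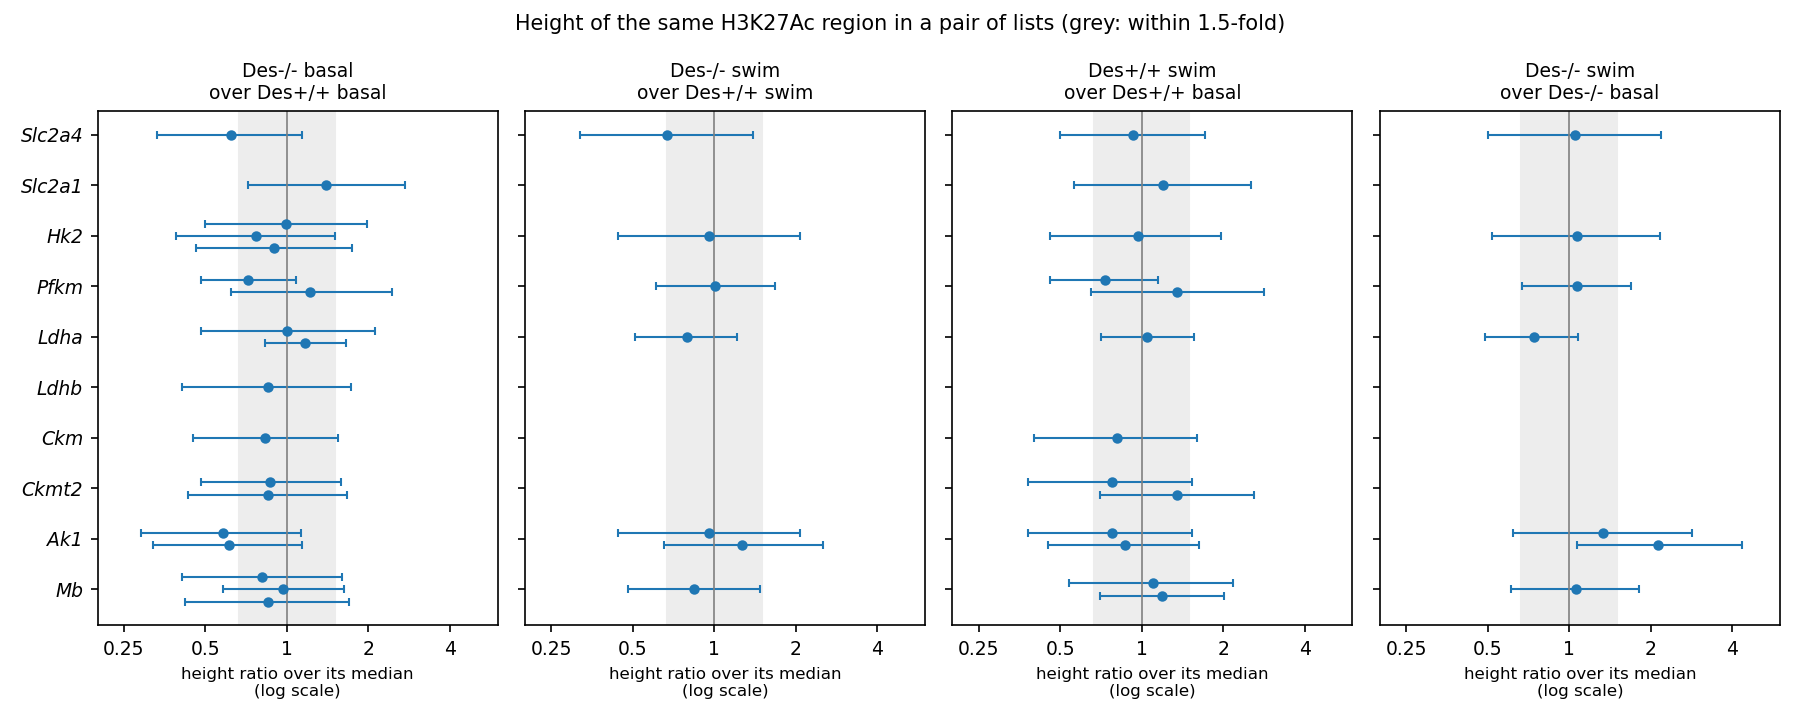
Height ratio of the same merged H3K27Ac region in a pair of lists (x axis, log scale), divided by the median ratio of all regions, with 95% exact binomial intervals; each point is 1 region of the gene on the y axis, and the grey band is within 1.5-fold. The 3 points left of the band in the basal comparison are Slc2a4 and 2 Ak1 starts, and the point right of it is the 3′ end of Ak1 at 2.13.

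Lamin A/C peaks at the 10 genes were confined, in these lists, to Mb. The lists held 188, 831, 635 and 536 peaks, of which 0, 1, 2 and 0 were of these genes, with a lowest height of 8 reads. Des-/- basal had a peak of 16 reads over input of 4 at chr15:77015599-77016112. Des+/+ swim had 1 of 29 reads over input of 6 at chr15:77015599-77016184, and 1 of 16 reads over input of 4 at chr15:77017591-77017852. The first of these overlapped the Des-/- basal peak. Exons made up 92.2%, 80.9% and 79.4% of the 3 peaks, while they make up 4.24% of the Mb gene. That share is over a span of 35184 bp from the most upstream start. All 3 peaks lay downstream of the internal starts of Mb, and the exon share from there on was not counted. Coding sequence made up 28.0%, 24.6% and 79.4% of the 3 peaks. At least 75% exon was found for 6.38%, 8.18%, 21.4% and 7.09% of all lamin A/C peaks in the order of lists. None of the 3 overlapped an H3K27Ac peak of its own group. Of the 8 cardiomyocyte markers 0, 4, 3 and 1 had a lamin A/C peak.

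A list of 56 further genes of glucose transport, glycolysis, pyruvate and lactate use, glycogen, phosphate transfer and globins gave the setting. An H3K27Ac peak was found at 38, 43, 36 and 28 of them in the order of lists, and at 11 in no list. In the basal state 1 of the 38 had none in Des-/-, and 6 of the 43 had none in Des+/+, beside 6.97% and 11.9% of all genes. After swimming 10 of the 36 with a Des+/+ peak had none in Des-/-, beside the 17.6% of all genes given above. In the other direction 2 of the 28 with a Des-/- peak had none in Des+/+, beside 16.3% of all genes. By group, the 10 were 5 of 8 glycogen genes, 3 of 4 phosphate transfer genes, 1 of 13 glycolysis genes and 1 of 11 pyruvate and lactate genes. Among them were Gys1, muscle glycogen synthase, Pygm, muscle glycogen phosphorylase, and Slc6a8, the creatine transporter. The glycolysis gene was Pgam2, muscle phosphoglycerate mutase, and the pyruvate and lactate gene Ldhd, D-lactate dehydrogenase. Pgam2 was also the 1 gene with a Des+/+ peak and no Des-/- peak in the basal state. Of 26 genes with a peak in both swim lists 1 was called higher and 3 lower in Des-/-, beside the 3.34% and 4.17% of all genes given above. The lower genes were 1 of 12 in glycolysis and 2 of 10 in pyruvate and lactate use, which also held the higher one. From basal to swim, 2 of 38 genes with a basal peak had none after swimming in Des+/+ and 16 of 43 in Des-/-, where 27.4% and 32.3% of all genes had none. Of the 56 genes, 0 had a lamin A/C peak in any list.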

How the data were processed

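The series has 16 samples: 8 precipitated libraries with 1 peak list each, and 8 inputs that enter through the input height of each peak. Per the labels, the authors aligned reads to GRCm38 (mm10) with Bowtie2 2.4.4 and SAMtools 1.13, called peaks in each library against its input with their own script, and annotated them with ChIPseeker 1.36.0. Duplicate removal, read extension and scaling to depth are not given in the sources used here. The methods give 1 approximate read number for all samples and no total per library, so depth is seen only through peak heights.

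Deposited heights are a coverage signal in reads. The deposited fold was in 100% of peaks the ratio of height plus 1 to input height plus 1. The deposited p-value and false discovery rate were the authors' filters (largest false discovery rate 1.00e-03 in the H3K27Ac list of Des-/- swim) and were not used further. Distance to the nearest start is the authors' score column, in bp.

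Peaks were taken by deposited gene symbol. All 76 peaks of the 10 genes matched the transcript spans of GENCODE vM21. Peaks sharing at least 1 bp were partners, and overlapping peaks of the 4 lists were merged into regions. Where several peaks of a list fell in a region, the highest was used. Heights were compared as ratios divided by the median ratio of all genes or regions in both lists, with a call at 1.5-fold. With 1 library per group no test was possible and no p-value is given. Intervals are 95% exact Poisson (heights), Wilson (shares) and exact conditional binomial (ratios of heights). They cover counting error only, and those of heights and ratios assume independent reads. Wilson intervals treat peaks or regions as independent of each other. Several came from the same gene, and all from single libraries, so these intervals may be too narrow. Overlap and ratio code was tested on simulated data. Promoter windows are from RefSeq, held 9 of the 10 genes in 18 windows, and all 18 matched the genome sequence. The 10 genes, the pathway genes and the marker lists were chosen with earlier results of these data known. All 10 genes are named, and other genes are named only where a peak over one of the 10 was assigned to them, where they overlap it, or for the deleted gene. The pathway genes named as the members of a count were named after their values were seen. Python 3.11.15, pandas 2.3.3, numpy 2.4.6, scipy 1.17.1, pysam 0.24.0 and matplotlib 3.10.9 were used. Alternatives covered the overlap, peak number, minimum height, gene assignment, promoter distance and centring.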

Additional observations from a re-analysis of the deposited data

Results flagged for a closer look

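Of the 10 genes, 5 had a centred log2 ratio of the highest H3K27Ac peak, swim against basal, in both genotypes. For 4 of the 5 this ratio had opposite signs in the genotypes, with 1 library per group and no test of the difference. The share of all genes with opposite signs was not counted, so the 4 are not set against a background. The log2 ratio was 0.10 in Des-/- and -0.05 in Des+/+ for Slc2a4, and 0.12 and -0.07 for Hk2. It was -0.42 and 0.12 for Ldha, and 0.86 and -0.15 for Ak1. For Mb, the other gene, it was positive in both, at 0.11 and 0.30. The interval of each of these ratios, before taking logs, includes 1. Of the 4, Ak1 in Des-/- alone passed 1.5-fold, and its value sets the 3′ end of the gene after swimming against its second start in the basal state. The Slc2a4 and Hk2 values lie close to 0 in both genotypes. The Ldha promoter went from 78 to 43 reads in Des-/- and from 63 to 49 in Des+/+.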

How the results depend on the processing

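No paired analysis was possible because each group had 1 library and the labels give no replicate numbers, and no library could be left out within a group. Of the alternative values, 44 stayed within 1.5 times the reported count and 28 did not. A stricter overlap of 50% of the shorter peak and the gene span in place of the nearest start left every count within that range, and so did a promoter distance of 1 kb. With equal numbers of the highest peaks, 9 of 13 Des+/+ swim peaks lacked a Des-/- swim partner, against 12 of 18 as reported. The other such counts became 8 of 15 for Des+/+ basal (3 of 23 as reported) and 2 of 10 for Des-/- basal (4 of 25) between genotypes, 3 of 7 for Des-/- swim (1 of 7), 5 of 15 for Des+/+ basal (9 of 23) and 6 of 10 for Des-/- basal (17 of 25) against swim, and 3 of 7 for Des-/- swim against basal (0 of 7). The shares of all peaks beside these were 15.1%, 15.8%, 25.0%, 24.0%, 24.4% and 16.8%, in that order. Of peaks of at least 30 reads, 0 lacked a partner in any comparison. At that limit 2, 3, 1 and 1 peaks of the 10 genes were left in Des+/+ basal, Des-/- basal, Des+/+ swim and Des-/- swim. These are too few to compare with all peaks. The peaks described as lost were thus below 30 reads, and reached 25 reads in Des-/- basal, where the median of all peaks was 23. Comparing the same merged region left 0 genes called higher in Des-/- basal. By deposited fold, 1 gene was called higher and 1 lower in Des-/- swim against Des+/+ swim, 1 higher after swimming in Des+/+, and 2 higher and 1 lower in Des-/-. With promoter peaks alone 1 gene was lower in Des-/- swim against Des+/+ swim and 0 were higher after swimming in Des-/-, Ak1 being lost. Without centring, 2 genes were lower after swimming in Des+/+, and 0 higher, Ak1 again being lost, and 1 lower in Des-/-. No share of all genes is given beside these alternative calls, and the cause of the shifts was not tested. Low heights and 1 library per group limit every statement.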
